A study of Mus musculus with 2 samples.

Results

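The Mir26 family of the mouse consists of the miRNA genes Mir26a-1, Mir26a-2 and Mir26b, each lying inside a gene of the Ctdsp group. These 3 genes were chosen by name and matched to their Ensembl gene IDs among the 1973 miRNA genes counted in newborn bladder. The samples were 2 whole bladders of B6NCrl mice on postnatal day 0, each from 1 pup of the same pregnancy, here called pup 1 and pup 2. Per the labels the pups' sex was not collected and the size range of the RNA was below 30 nucleotides. There was no treatment, mutant or second age, so the libraries form 1 group. Both carry the same donor entry in the labels, and the spread between them covers neither litters nor other ages.

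MicroRNAs are cut from a hairpin precursor, whose 5′ side and 3′ side can each give a mature strand, the 5p and the 3p arm. The mature strand is loaded onto an Argonaute protein and pairs with target messenger RNAs mainly through its seed, bases 2 to 8. The miR-26 family is known for restraining growth and the cell cycle, with the chromatin regulator Ezh2 and several cyclins among its described targets. The host genes Ctdsp1, Ctdsp2 and Ctdspl encode small phosphatases that act on the tail of RNA polymerase II and serve in complexes that silence neuronal genes outside neurons. Host messenger RNA was not measured here.

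The mature sequences show which members can be told apart in short reads. They are given 5′ to 3′ from RefSeq on GRCm38.p6, with the seed in capitals.
miR-26a-5p (Mir26a-1 and Mir26a-2): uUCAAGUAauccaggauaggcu
miR-26b-5p (Mir26b): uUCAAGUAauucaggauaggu
miR-26a-1-3p (Mir26a-1): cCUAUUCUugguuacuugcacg
miR-26a-2-3p (Mir26a-2): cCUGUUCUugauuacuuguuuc
miR-26b-3p (Mir26b): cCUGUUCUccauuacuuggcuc
All 3 genes give a 5p arm with the seed UCAAGUA. No further gene in the RefSeq table has this seed. The 5p arm of Mir26a-1 is letter for letter that of Mir26a-2. Counted from base 1 at the 5′ end, miR-26b-5p differs from miR-26a-5p at 2 of 21 compared bases, C11U and C21U, both outside the seed, and it is 1 base shorter. The 3p arms differ more. Mir26a-1 and Mir26a-2 differ at 6 of 22 bases there, 1 of them, A4G, in the seed. Mir26a-2 and Mir26b differ at 4 of 22 bases, none of them in the seed, so these 2 genes share the 3p seed CUGUUCU. Mir6932 and Mir7039 carry it too, and they had 0 and 1 counts over both libraries.

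The hairpins show how far the likeness reaches past the arms. They are RefSeq hairpins on GRCm38.p6, with both mature arms in capitals.
Mir26b, chr1:74394310-74394394, plus strand: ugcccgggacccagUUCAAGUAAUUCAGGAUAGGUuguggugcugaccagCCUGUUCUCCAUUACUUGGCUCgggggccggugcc
Mir26a-2, chr10:126995530-126995613, plus strand: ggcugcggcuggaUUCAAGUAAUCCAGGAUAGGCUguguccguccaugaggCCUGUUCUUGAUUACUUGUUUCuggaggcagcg
Mir26a-1, chr9:119031796-119031885, plus strand: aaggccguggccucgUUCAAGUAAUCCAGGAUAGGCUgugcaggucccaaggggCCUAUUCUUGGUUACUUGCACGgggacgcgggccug
The hairpins are 85, 84 and 90 bases long, with a GC content of 58.8%, 53.6% and 60%. RNAfold gave them similar predicted folding energies of -43.5, -44.5 and -49.4 kcal/mol. The longest run of bases common to Mir26a-1 and Mir26a-2 is 25 bases long. It begins at the first base of the 5p arm and goes 3 bases past its end. The longest run that Mir26b has in common with either of the others is 11 bases (Mir26a-1) and 10 bases (Mir26a-2).

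To see which reads could belong to 1 gene alone, each hairpin was read in windows of 20 bases and each window was searched on both strands in all annotated transcripts of GENCODE M21, leaving out those of the 3 host genes. All 66 windows of Mir26b were found nowhere else. Of the 71 windows of Mir26a-1 and the 65 of Mir26a-2, 6 each were found in another annotated RNA. These 6 windows start at the first bases of the 5p arm, and they include all 3 windows that lie inside that arm. The 3 windows inside each 3p arm were unique in every member. Sequence outside annotated transcripts was not searched. Among the 1894 miRNA genes with a sequence, 48.7% had at least 1 window in another miRNA gene.

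**Figure D1:**
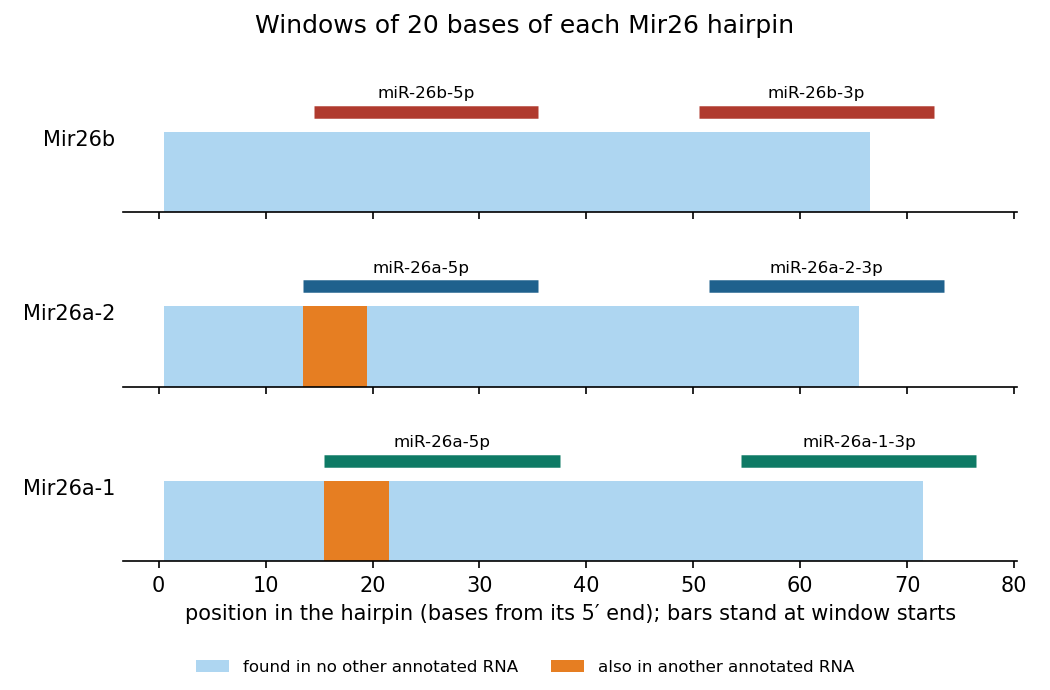
Windows of 20 bases along the Mir26b, Mir26a-2 and Mir26a-1 hairpins, plotted at the position where each window starts, in bases from the 5′ end, with the mature arms as bars above. The 6 orange windows of Mir26a-1 and of Mir26a-2, which also occur in another annotated RNA, begin at the 5p arm, and Mir26b has none.

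Mir26b (ENSMUSG00000065468.1) lies on chromosome 1 in intron 4 of Ctdsp1, a host gene of 5777 bases. The intron is 564 bases long, with 234 bases between the upstream exon and the hairpin. Mir26a-2 (ENSMUSG00000065430.1) lies on chromosome 10 in intron 5 of Ctdsp2, which spans 21259 bases. Its last base is also the first base of an exon in 2 shorter Ctdsp2 transcripts. Mir26a-1 (ENSMUSG00000065513.1) lies on chromosome 9 in intron 5 of Ctdspl, which spans 117546 bases. Intron numbers refer to the principal transcript of each host in GENCODE M21. Each member has its host's strand, and none overlaps a gene other than its host. The nearest annotated miRNA gene is 187690 bases from Mir26b and 1032366 bases from Mir26a-1, outside their hosts. Mir26a-2 has Mir546 in the same host and on the same strand, 2827 bases away, and Mir546 had 2 counts in pup 1 and 1 in pup 2.

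The libraries differed in depth, with 7460621 sense-strand gene counts in pup 1 and 3636650 in pup 2. Levels are given as counts per 1000000 sense-strand gene counts (CPM). On this scale the upper limit behind a count of 0, taken as 3 counts, is 0.402 CPM for pup 1 and 0.825 CPM for pup 2. These limits and the 95% exact binomial intervals below cover counting error only, since no molecular identifiers were available. The label "bladder" was checked on marker miRNAs. Both smooth muscle markers, all 7 epithelial markers and the endothelial gene Mir126a were detected, at sums of 53.7%, 1.65% and 1.98% of counts. Mir143 of smooth muscle was highest at rank 1 and Mir200a lowest of the epithelial list at 339.4 ± 0.136 CPM (SD, n = 2). All 5 measured genes of the neuron list, Mir124a-1 to Mir124a-3, Mir9-2 and Mir9-3, were at 0 in both libraries. The Mir124a copies give the same mature miRNA, as do the Mir9 copies, and reads mapped to several places were assigned to no gene, so these values of 0 do not show that the miRNAs were absent. In the striated muscle list, Mir206 at 9.00 ± 3.01 CPM was the 1 detected of 4 measured genes, and Mir1a and Mir133a likewise have copies with the same mature miRNA. Outside that list, the miRNA genes in myosin heavy chain genes of heart and striated muscle were detected, Mir208b in Myh7 at 62.9 ± 14.7 CPM, Mir208a in Myh6 at 20.6 ± 3.15 CPM and Mir499 in Myh7b at 6.90 ± 4.64 CPM.

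Within the family, Mir26b was high and both Mir26a genes were low. Mir26b had 155013 counts or 20777 CPM in pup 1 (95% interval 20675 to 20880) and 84816 counts or 23323 CPM in pup 2 (23168 to 23478). Its mean was 22050.0 ± 1799.6 CPM (SD, n = 2), and it ranked 7 of all 1973 genes. Mir26a-2 had 209 counts or 28.0 CPM in pup 1 (24.3 to 32.1) and 108 counts or 29.7 CPM in pup 2 (24.4 to 35.9), a mean of 28.9 ± 1.19 CPM at rank 201. Both pups thus gave Mir26a-2 levels within each other's counting interval. Mir26a-1 had 56 counts or 7.51 CPM in pup 1 (5.67 to 9.75) and 32 counts or 8.80 CPM in pup 2 (6.02 to 12.4), a mean of 8.15 ± 0.914 CPM at rank 254. The order Mir26b, Mir26a-2, Mir26a-1 held in both pups with no overlap between members. None of the members had a count on the opposite strand. In whole tissue, fewer cells of a type and less RNA per cell cannot be told apart.

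**Figure D2:**
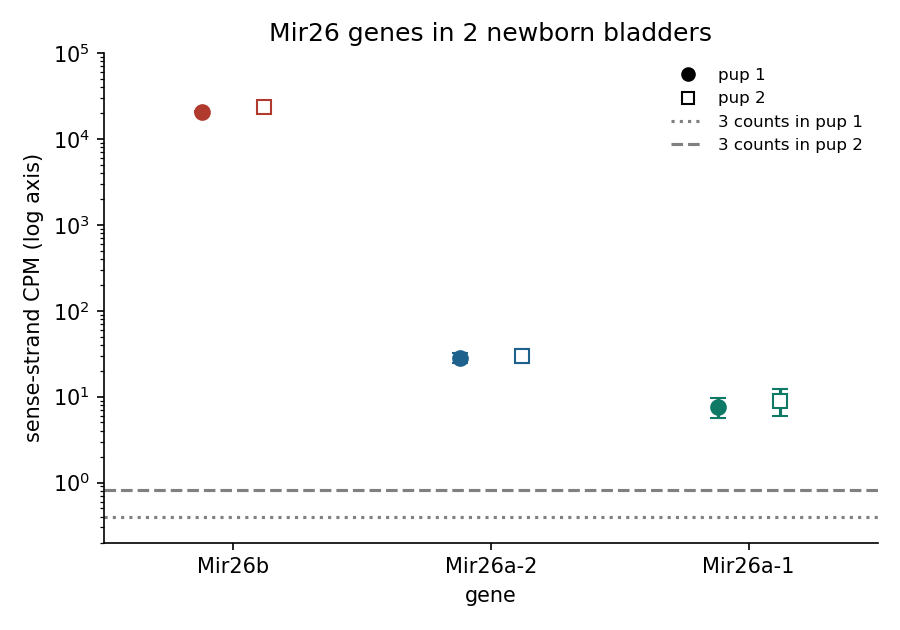
Level of each Mir26 gene in sense-strand CPM on a log axis, with pup 1 as filled circles, pup 2 as open squares, bars for the 95% exact binomial interval and lines for the level of 3 counts. Mir26b sits near 22050 CPM, Mir26a-2 near 28.9 CPM and Mir26a-1 near 8.15 CPM, and the pups lie close together at each gene.

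The family held 2.08% of sense-strand gene counts in pup 1 and 2.34% in pup 2. Mir26b made up 99.829% of the family's counts in pup 1 (interval 99.808% to 99.849%) and 99.835% in pup 2 (99.806% to 99.861%). On the CPM scale Mir26b was 742-fold above Mir26a-2 in pup 1 and 785-fold in pup 2. It was 2768-fold and 2651-fold above Mir26a-1. Scaled by hairpin length, the mean ratios were 755 ± 30.5 and 2869 ± 88.0. The ratio of Mir26b to the sum of both Mir26a genes was 585 in pup 1 and 606 in pup 2.

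Both Mir26a genes kept a like proportion to each other in the pups. Mir26a-2 had 3.73 counts for each count of Mir26a-1 in pup 1 (95% interval 2.77 to 5.11) and 3.38 in pup 2 (2.26 to 5.18). It made up 78.9% and 77.1% of the Mir26a counts, and the intervals of these shares, 73.5% to 83.6% and 69.3% to 83.8%, overlap over most of their length. Per base of hairpin the mean ratio was 3.81 ± 0.271. These ratios describe reads that were assigned to 1 of the genes. The tables do not separate arms, so how many of these counts came from the 5p or from the 3p arm is not known.

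The levels of Mir26a-1 and Mir26a-2 have a limit that Mir26b, whose windows were all unique among annotated transcripts, does not share in the same way. Reads mapped to several places are listed in a total of their own and assigned to no gene. They came to 2570930 reads in pup 1 and 1390007 in pup 2, or 22.7% and 24.8% of all reads. That was 16.6 times the counts of Mir26b in pup 1 and 16.4 times in pup 2, and 9702 and 9929 times the summed counts of the Mir26a genes. A read of up to 25 bases from the start of miR-26a-5p has the same sequence at both Mir26a loci. How many of the reads in that total were miR-26a-5p was not tested, and the counts of Mir26a-1 and Mir26a-2 are no measure of miR-26a-5p.

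In the order of all genes, Mir26b could not be told from Mirlet7i and Mir22 beyond the spread between pups, while Mir126a was lower in both. Mirlet7i, of the let-7 family, stood just above Mir26b at 22500 ± 2206 CPM, with 24060 CPM in pup 1 and 20940 CPM in pup 2. Mir26b was below Mirlet7i in pup 1 and above it in pup 2, so their order changed between the pups. Mir126a of endothelial cells stood just below at 19780.1 ± 190.3 CPM and did not overlap with Mir26b. Mir22 came next at 19380 ± 2921 CPM, above Mir26b in pup 1 and below it in pup 2. The neighbours of the Mir26a genes overlapped with them, Mir495 (29.1 ± 1.20 CPM) and Mir672 (28.6 ± 3.52 CPM) with Mir26a-2, and Mir378d (8.19 ± 3.02 CPM) and Mir218-1 with Mir26a-1. By Euclidean distance in log2(CPM + 1) over the 2 libraries, the genes most like Mir26b were Mir126a (0.25), Mirlet7i (0.26) and Mir23a (0.38). Those most like Mir26a-2 were Mir495 (0.02), Mir150 (0.11) and Mir672 (0.23), and those most like Mir26a-1 were Mir184 (0.15), Mir378c (0.17) and Mir1955 (0.21). With 2 libraries this measure reflects mostly the level.

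**Figure D3:**
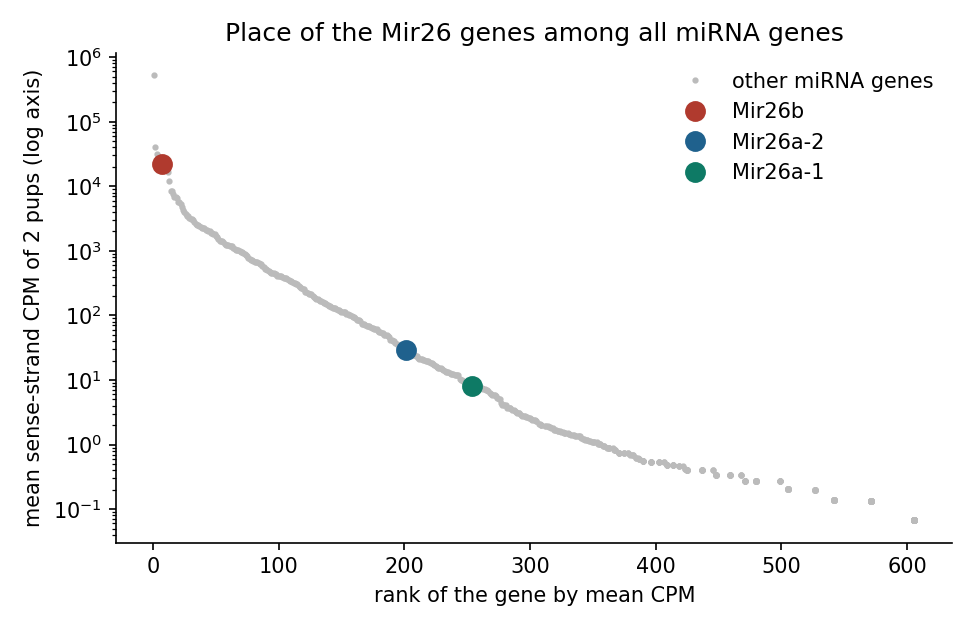
Mean sense-strand CPM of the 2 pups on a log axis against the rank of each miRNA gene with any count, with the Mir26 genes as large points. Mir26b at rank 7 stands among the most abundant genes, and Mir26a-2 at rank 201 and Mir26a-1 at rank 254 lie in the lower part of the 335 genes detected in both libraries at 1 CPM and 3 counts.

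The pups were then compared gene by gene. Each library was 1 pup, so this compares 2 libraries and not conditions. A two-sided exact binomial test with Benjamini-Hochberg adjustment over 362 genes, against counting noise alone, called 117 genes at an adjusted p under 0.05, or 32.3%. Of these, 69 were higher in pup 2 (19.1% of tested genes) and 48 higher in pup 1 (13.3%). That split became 56 and 69 with DESeq2 size factors, 59 and 64 with total counts and 50 and 68 with no count filter.

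Of the 3 Mir26 genes, 1 was called. Mir26b was 1.14-fold higher in pup 2 (95% interval 1.13 to 1.15, log2 ratio 0.19, counting SE 0.0062), with an adjusted p of 2.47e-205 by the exact binomial test. Among genes with at least 10000 counts summed, as Mir26b has, the test called 56 of 73, or 76.7%. In edgeR's exact test with the common dispersion of these libraries, a coefficient of variation of 13.2%, no Mir26 gene was called. That test called 5 of 362 genes, or 1.38%, and gave Mir26b an adjusted p of 1 (unadjusted p = 0.481). The median absolute log2 ratio of all tested genes was 0.16, and 203 of 362 genes had a smaller one than Mir26b. Many of the 362 genes have far fewer counts than Mir26b, so their ratios carry more counting error. These values therefore do not place Mir26b among genes of its own depth. The common dispersion of edgeR's exact test was estimated from the differences between these same libraries, that of Mir26b among them. That test therefore cannot decide whether Mir26b differed beyond the spread between pups.

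Mir26a-2 and Mir26a-1 were not called. Their log2 ratios were 0.11 (counting SE 0.171, adjusted p = 0.727 by the exact binomial test) and 0.25 (counting SE 0.318, adjusted p = 0.604). The 95% intervals of the ratio of pup 2 to pup 1 ran from 0.846 to 1.37 for Mir26a-2 and from 0.747 to 1.87 for Mir26a-1. With these counts a change of the size seen at Mir26b was not detectable in either. Marker miRNAs moved between the same libraries. The summed blood cell list, Mir223, Mir144, Mir451a, Mir486, Mir150 and Mir155, with 6 of 6 detected, summed to 1201 CPM in pup 1 and to 2357 CPM in pup 2. Most of that difference came from Mir223, at 396.2 and 1274 CPM, and the other 5 genes summed to 804.9 and 1083 CPM. The exact binomial test called Mir223, Mir144 and Mir451a as higher in pup 2, and Mir486, Mir150 and Mir155 were not called, with Mir155 at 77.3 and 70.7 CPM. Mir122 of liver had 111.8 and 31.6 CPM, and the epithelial sum was 16684 and 16284 CPM. Their part in the Mir26b ratio was not tested.

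**Figure D4:**
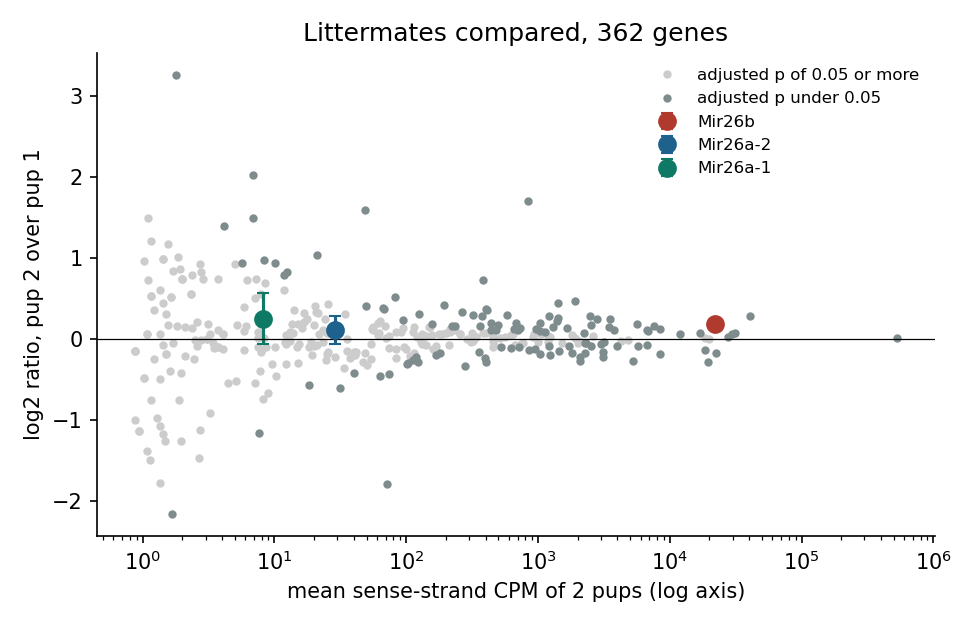
Log2 ratio of pup 2 over pup 1 against mean sense-strand CPM on a log axis for the 362 tested genes, with dark grey for genes called by the exact binomial test and bars for the counting SE of the Mir26 genes. All 3 Mir26 genes lie slightly above 0, Mir26b at 0.19.

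Other miRNA families also lie in introns of related or conserved host genes, as the Mir26 genes do in the Ctdsp genes. A list of 21 such genes had 19 detected and a median of 25.6 CPM, beside a median of 0 over all 1973 genes. No gene of the list was above Mir26b, 10 were above Mir26a-2 and 16 above Mir26a-1. The highest was Mir30e in Nfyc at 6726 ± 301.6 CPM, and the lowest was Mir211 in Trpm1 with 0 and 1 counts. Of 20 tested, 8 were called by the exact binomial test as higher in pup 2 (40%, beside 19.1% of all tested genes) and 1 as higher in pup 1 (5%, beside 13.3%), at a median log2 ratio of 0.23 against 0.03 over all tested genes. The 8 include Mir106b, Mir93 and Mir25, which share the host Mcm7, and Mir15b and Mir16-2, which share Smc4. Over all genes the split by direction changed side with other scalings, and that of this list was not recomputed under them. Calls by this test, in either direction, depend on depth too. In this list 4 genes had at least 10000 counts summed and all 4 were called, beside 76.7% of all genes at that depth.

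The Pank genes, which encode pantothenate kinases, hold a family built like Mir26. Mir107 in Pank1 has no arm identical to another gene's and was at 484.0 ± 20.6 CPM. Mir103-1 in Pank3 and Mir103-2 in Pank2 share an identical mature arm and were at 1.91 ± 0.802 and 19.1 ± 0.521 CPM. Identical arms also occur in Mir218-1 in Slit2 and Mir218-2 in Slit3, at 7.93 ± 0.721 and 17.6 ± 1.95 CPM, and in Mir128-1 in R3hdm1 and Mir128-2 in Arpp21, at 25.6 ± 5.07 and 1.02 ± 0.498 CPM. Mir30c-1, in the same host as Mir30e, was at 13.2 ± 0.429 CPM. Mir16-2 in Smc4 was higher at 409.0 ± 66.7 CPM, and its arm is identical to that of Mir16-1. Genes of the list with no identical arm were also low in places, as Mir211, Mir499, Mir208a and Mir204 in Trpm3, the last at 8.51 ± 2.74 CPM.

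Over the 916 genes with RefSeq mature sequences, 87 had a mature arm identical to that of another gene, as Mir26a-1 and Mir26a-2 do. Of these 42 were detected, with a median of 1.03 CPM, and 2 reached 1000 CPM. Of the 829 genes for which no such arm was found, as Mir26b, 266 were detected, with a median of 0.205 CPM, and 60 reached 1000 CPM. Identical arms were searched only among symbols with RefSeq mature sequences, so a copy without them was missed. For the Mir124a copies, which give the same mature miRNA, none was found. The kind of arm given to a gene here depends on that search. Both kinds of gene occurred in 17 seed groups with at least 10 counts summed over the group. Seeds of both arms formed groups, and each gene entered with all its counts, since the arms are not separated. The level in a group therefore need not come from the arm with its seed. A gene can also stand in more than 1 group, as Mir98 does under GAGGUAG and UAUACAA, so the 17 groups are not independent. The highest gene with an arm of its own was above the highest gene with a shared arm in 13 of them and below it in 4. In 4 of the 17 groups the gene on 1 side was at 0, and in the 13 groups with counts on both sides the gene with its own arm was above in 11 and below in 2. The miR-26 seed had the widest gap of the 17, 9.53 in log2(CPM + 1), beside a median of 4.17. Next among groups with counts on both sides came Mir30e over Mir30c-1 at 8.89, Mir29a over Mir29b-1 at 6.21 and Mir196b over Mir196a-2 at 6.02. In the groups of Mir92-1 and Mir7-1 the gene with the shared arm was higher, at 498.8 ± 36.5 against 194.3 ± 37.5 CPM for Mir25 and at 24.3 ± 2.64 against 8.31 ± 3.80 CPM for Mir7b. Groups differ in how many genes they hold, and this comparison is a description with no test.

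Among miRNAs known to act on growth and the cell cycle, as miR-26 is, all 24 measured of 25 listed were detected, with a median of 729 CPM. Mir26b was above 22 of them, with Mirlet7g at 29828.5 ± 612.2 CPM the highest of the list and Mirlet7i also above it. Mir26a-2 was below 20 of the 24 and Mir26a-1 below 22. The lowest gene of the list, Mir19b-1 at 2.70 ± 1.49 CPM, and Mir29b-1 at 4.07 ± 0.0732 CPM have an arm identical to another gene's, like the Mir26a genes, and so have Mir16-1 at 1892 ± 407.0 CPM and Mir92-1. The exact binomial test called 13 of the 24 as higher in pup 2 (54.2%, beside 19.1% of all tested genes) and 2 as lower there (8.33%, beside 13.3%), at a median log2 ratio of 0.11. Genes of this list have many counts: 12 had at least 10000 summed, of which 10 were called (83.3%, beside 76.7% of all genes at that depth). The shares at that depth join both directions, and the split of this list by direction was not recomputed under other scalings. The list includes genes of the same transcripts, which are not separate evidence.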

How the data were processed

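MicroRNA-seq counts of 2 libraries were used. The authors deposited 1 table per library with raw counts per miRNA gene, made from an mm10 alignment with GENCODE release M4, per the labels and the text deposited with them; no aligner, counter or read filter is named in the sources used here. The first count column was the sum of the others at every gene. The second was read as the sense strand, because it holds nearly all counts. The first 4 lines, totals of unassigned reads, stayed out of library sizes: 8.19% and 7.32% of reads were unmapped, 22.7% and 24.8% mapped to several places, and 3.22% and 3.07% mapped outside genes.

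Symbols, positions and hosts came from GENCODE M21 on GRCm38, which mm10 names; 1894 of 1973 gene IDs matched. RefSeq sequences were joined by symbol for 916 genes. CPM is sense counts per 1000000 sense gene counts. The libraries' counts differed by a chi-square of 48.3 times its degrees of freedom, so they are not 1 library in duplicate. Ratios used TMM sizes (edgeR 4.0.16, R 4.3.3), genes with at least 10 counts summed and a prior count of 0.5. With 1 library a side, edgeR's quasi-likelihood test has no residual degree of freedom. P-values of the exact binomial test measure read counting alone; those of edgeR's exact test include a spread estimated between these samples, which may be technical. The exact binomial test was tested on simulated counts that held counting noise alone, which leaves out the wider spread seen between these libraries. Alternatives were other scalings (DESeq2 1.42.0), filters, both strands, other denominators, window lengths of 18 and 22 bases and each pup left out. Python 3.11.15, scipy 1.17.1 and RNAfold 2.7.2 did the rest.

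Named genes were the 3 members, the 3 nearest to each in log2(CPM + 1), the highest and lowest of each list and members with identical arms; Mir22, Mir196b, Mir196a-2, Mir7-1, Mir7b, Mir378d and Mir546 were named after their values or positions were seen. Members and lists were chosen with earlier results of these data known.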

Additional observations from a re-analysis of the deposited data

How the results depend on the processing

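Of 56 values recomputed under an alternative for 12 results, 48 were counted as unchanged and none reversed. Ratios of the pups counted so if they kept their direction and side of the threshold. Levels and values within the family had to move by less than the spread between the pups. Numbers of genes and of windows were judged by fold difference. Some of the 48 could not come out otherwise. With either pup left out, a mean always moves by less than the SD of both. Counts of both strands leave values within the family fixed, since no member had opposite-strand counts. A larger prior count leaves the p-value unchanged. Of the others, the levels without Mir143 or per all reads follow from the construction of the alternative. The results of edgeR's exact test rest on the dispersion estimated between these libraries. With the common dispersion in edgeR's exact test the number of genes differing between the pups was 5, and the log2 ratio of Mir26b, 0.19, was no longer past the threshold (adjusted p = 1, against 2.96e-93 to 2.47e-205 under the other alternatives). With Mir143 left out of the total, the mean levels of Mir26a-1, Mir26a-2 and Mir26b were 17.2, 60.7 and 46394 CPM. Per 1000000 of all reads they were 5.32, 18.9 and 14404. With either pup left out they ranged from 7.51 to 8.80, from 28.0 to 29.7 and from 20777 to 23323 CPM, and the ratio of Mir26a-2 to Mir26a-1 from 3.38 to 3.73. The ratio of the pups needs both libraries, so no pup was left out of it, and Mir26a-1 has fewer than the 100 counts of the stricter filter. No paired analysis was possible because there is 1 group. Depth limits the Mir26a genes, with 32 to 209 counts a library.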
